A study of Homo sapiens with 2 samples.

Results

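ATP-dependent chromatin remodellers, the enzymes that slide, eject or exchange nucleosomes, were examined as a set of 46 genes in SW48 cells after knockdown of YY1. The set was chosen by gene symbol, by a rule that uses no measured value, although earlier results of these data were known when it was drawn up. The probe sets analysed here named 17687 genes in all. The set comprised 14 subunits of INO80, 6 of SRCAP, 15 of SWI/SNF, 5 of the ISWI group and 6 CHD proteins. Of the 46 genes, 44 were measured, each by 1 probe set, and SRCAP and CHD2 were not analysed here.

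SW48 is an established line of human colorectal cancer cells. One culture (siYY1) received a small interfering RNA (siRNA) aimed at YY1 and the other (siControl) a negative control siRNA, both at 5 nmol/L, and RNA was taken after 3 days. Each culture gave 1 whole-transcript array, so no difference below has a replicate error or a test. A single siYY1 treatment stood for the knockdown. The level of YY1 was not analysed here, so neither the depth of the knockdown nor the labels of the arrays were checked.

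INO80 is a large remodeller that slides and spaces nucleosomes and acts in transcription, replication and DNA repair. YY1, a zinc finger transcription factor, co-purifies with human INO80 and is known to use it as a coactivator. SRCAP and the related TIP60 complex place the histone variant H2A.Z, SWI/SNF (BAF) complexes open enhancers and promoters and are often mutated in cancer, ISWI complexes space nucleosomes, and CHD proteins include the ATPases of the repressive NuRD complex.

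All values are log2 expression values, and all differences are siYY1 minus siControl. A gene was kept when its mean over both arrays reached 7.54, the median of all named genes, which retained 8844 genes. Among the 46 remodeller genes, 42 were kept, while SMARCA1 and CHD3 were under the filter value, called dim here. The median over all probes was 7.10 in siYY1 and 7.11 in siControl. Of 9 colon epithelial markers with a probe, 7 were kept, from KRT8 (16.36 in siYY1 and 16.35 in siControl) to CDX2 (12.06 in siYY1 and 11.91 in siControl), while CDX1 and VIL1 were dim. The kept marker with the widest difference was CEACAM5, carcinoembryonic antigen, at 12.42 in siYY1 and 13.80 in siControl (-1.38), followed by KRT19 at 14.33 in siYY1 and 14.67 in siControl (-0.34), both named after their values were seen. All 4 leukocyte and all 4 endothelial markers with a probe were dim, and of 4 fibroblast markers 1 was kept. Log2 values were also summed over each list, which mixes different probes and does not give an amount of RNA. For the epithelial list the sum was 109.9 in siYY1 and 112.1 in siControl. For leukocyte markers the sum was 22.7 in siYY1 and 21.5 in siControl. It was 17.7 in siYY1 and 17.5 in siControl for endothelial markers, and 23.7 in siYY1 and 24.1 in siControl for fibroblast markers. The part of any of these in the results was not tested.

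The remodeller genes differed little between the arrays. No kept member reached a difference of 1.5-fold (0.58 on the log2 scale) in either direction, 0 of 42, whereas 6.82% of all kept genes did. The widest negative difference belonged to the SWI/SNF gene ARID1A (-0.53) and the widest positive one to CHD1 (0.34). Between these ends, 27 members were higher in siYY1 and 15 lower, or 64.3% higher, against 50.4% of all kept genes. The median difference was 0.06 for the members and 0.00 for all kept genes. The interquartile range of the members spanned -0.10 to 0.17, and that of all kept genes -0.19 to 0.18. That range of all kept genes held 28 of the 42 members (66.7%). The plot of differences against brightness shows the remodeller genes between the 1.5-fold lines.

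**Figure D1:**
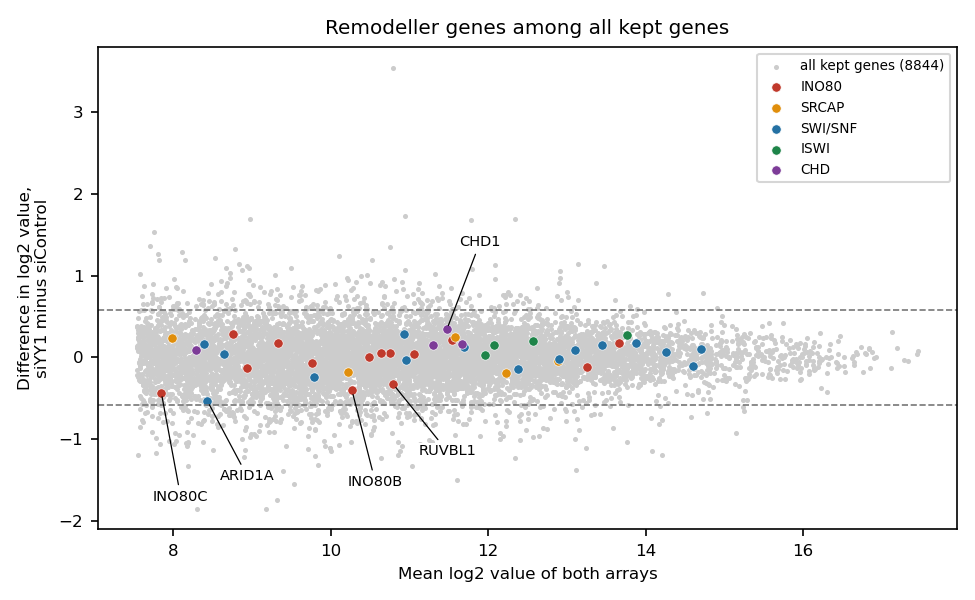
Difference in log2 value (siYY1 minus siControl, vertical axis) against the mean log2 value of both arrays (horizontal axis) for 8844 kept genes (grey) and 42 kept remodeller genes (coloured by complex). Dashed lines mark 1.5-fold in each direction, and no coloured point lies beyond them, with ARID1A (-0.53) and CHD1 (0.34) at the ends.

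At a smaller size of 1.3-fold, 3 kept members were lower in siYY1 and 0 higher. The shares of all kept genes past that size were 10.4% lower and 9.16% higher. The 3 genes were ARID1A, INO80C and INO80B. Of all kept genes, 8.90% differed at least as far from 0 as ARID1A.

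Promoter sequence was then read for the letters that YY1 is known to bind, an ATGGCG core that often follows a run of A. The pattern AANATGGCG was searched on both strands of RefSeq promoter windows (GRCh38.p14) reaching from 250 bases before to 50 bases after a start site. It contains the complement of the shorter core CCATNTT, so the patterns overlap. A window was found for 38 of the 46 genes, and 5 of them held the pattern. These are shown because they are the only promoters among the 38 genes with it, as 30-base stretches in the direction of the gene, with the match in capitals.
ACTR5: cgcgcgctccAAGATGGCGgcgaacgtgtt
INO80E: ttccagcgtcCGCCATTTTtgtggcgtcac
ZNHIT1: gcccctataaAACATGGCGaaaagctttct
SMARCD1: cggctccgggAAGATGGCGgcccgggcggg
DPF2: agaggaacagggAAGATGGCGgctgtggtg

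The stretches lie at chr20:38748466-38748495 for ACTR5, chr16:29996053-29996082 for INO80E, chr7:101218022-101218051 for ZNHIT1, chr12:50085357-50085386 for SMARCD1 and chr11:65333872-65333901 for DPF2, all for genes on the plus strand. In ACTR5, SMARCD1 and DPF2 the match begins at base 17, 26 and 33 of the transcript, in that order, in the same orientation, and reads AAGATGGCG in each. In ZNHIT1 it begins 133 bases before the start site, and in INO80E it lies on the opposite strand, 178 to 170 bases before the start site. The differences of these genes were 0.18 for ACTR5, 0.21 for INO80E, 0.25 for ZNHIT1, -0.02 for SMARCD1 and 0.11 for DPF2. None of the 5 reached 1.5-fold.

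Over all 35116 windows, 3.19% held the pattern. Per gene, 9.42% of 7462 kept genes with a window held it, and 5 of 34 kept members did (14.7%). The median difference was 0.18 for the 5 members with the pattern and 0.05 for the 29 without it. Among all kept genes with a window, it was 0.04 for 703 genes with the pattern and 0.00 for the rest. The gap between these groups, 0.04 with AANATGGCG, was 0.013 with AAGATGGCG and 0.0078 with CCATNTT. The median of the members holding the pattern was 0.11 with AAGATGGCG (3 genes) and 0.14 with CCATNTT (8 genes). A match says only that these letters are present, and no binding was measured.

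INO80 subunits were spread on both sides of 0. Of 14 subunits, all kept, 8 were higher in siYY1 and 6 lower, with a median difference of 0.02. The other 28 kept members had a median of 0.10, with 19 higher and 9 lower. Of the 14 INO80 subunits, 9 lay inside the interquartile range of all kept genes.

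The ATPase gene INO80 itself, the motor of the complex, read 8.87 in siYY1 and 9.00 in siControl, a difference of -0.13. At least as large a difference was seen in 63.3% of all kept genes. RUVBL1 and RUVBL2 are the paired AAA+ ATPases that form the ring on which INO80 is built, and they also serve SRCAP and TIP60. RUVBL1 read 10.63 in siYY1 and 10.96 in siControl (-0.33), and RUVBL2 read 13.19 in siYY1 and 13.31 in siControl (-0.12). Both ring genes read lower in siYY1. Differences at least this far from 0 occurred in 24.9% of kept genes for RUVBL1 and in 66.1% for RUVBL2.

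The widest differences in INO80 were those of 2 small subunits. INO80C, whose yeast counterpart Ies6 pairs with Arp5, read 7.63 in siYY1 and 8.06 in siControl, a difference of -0.43 or 1.35-fold lower. INO80B, the counterpart of yeast Ies2, read 10.07 in siYY1 and 10.47 in siControl, a difference of -0.40 or 1.32-fold lower. Differences at least this far from 0 occurred in 15.1% of kept genes for INO80C and in 17.3% for INO80B. INO80C lay close to the filter value in siYY1, and RefSeq lists a readthrough gene, INO80B-WBP1, whose transcripts INO80B probes may share, so both values are uncertain.

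Of the actin-related subunits, ACTR8 and ACTR5 were higher in siYY1, while ACTL6A was nearly level between the arrays. ACTR8 read 8.90 in siYY1 and 8.62 in siControl (0.28). ACTR5, the partner of INO80C, read 9.42 in siYY1 and 9.25 in siControl (0.18). ACTL6A, an actin-like protein that also belongs to SWI/SNF and SRCAP, read 11.08 in siYY1 and 11.04 in siControl (0.04). Thus ACTR5 and INO80C, known as a module of the complex, had differences of opposite sign.

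The subunits found in animal but not yeast INO80 ranged from -0.07 to 0.21. INO80E was the highest, at 11.65 in siYY1 and 11.44 in siControl (0.21). UCHL5, a deubiquitinase that also works on the proteasome, read 13.75 in siYY1 and 13.57 in siControl (0.18). The other 4 of these, MCRS1 (0.06), TFPT (0.05), INO80D (0.01) and NFRKB (-0.07), were nearly level between the arrays. MCRS1 read 10.66 in siYY1 and 10.61 in siControl, TFPT 10.77 in siYY1 and 10.72 in siControl, INO80D 10.49 in siYY1 and 10.48 in siControl, and NFRKB 9.73 in siYY1 and 9.80 in siControl. Without the 4 subunits that INO80 shares with other complexes (ACTL6A, RUVBL1, RUVBL2 and UCHL5), the median of the remaining 10 was 0.03.

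**Figure D2:**
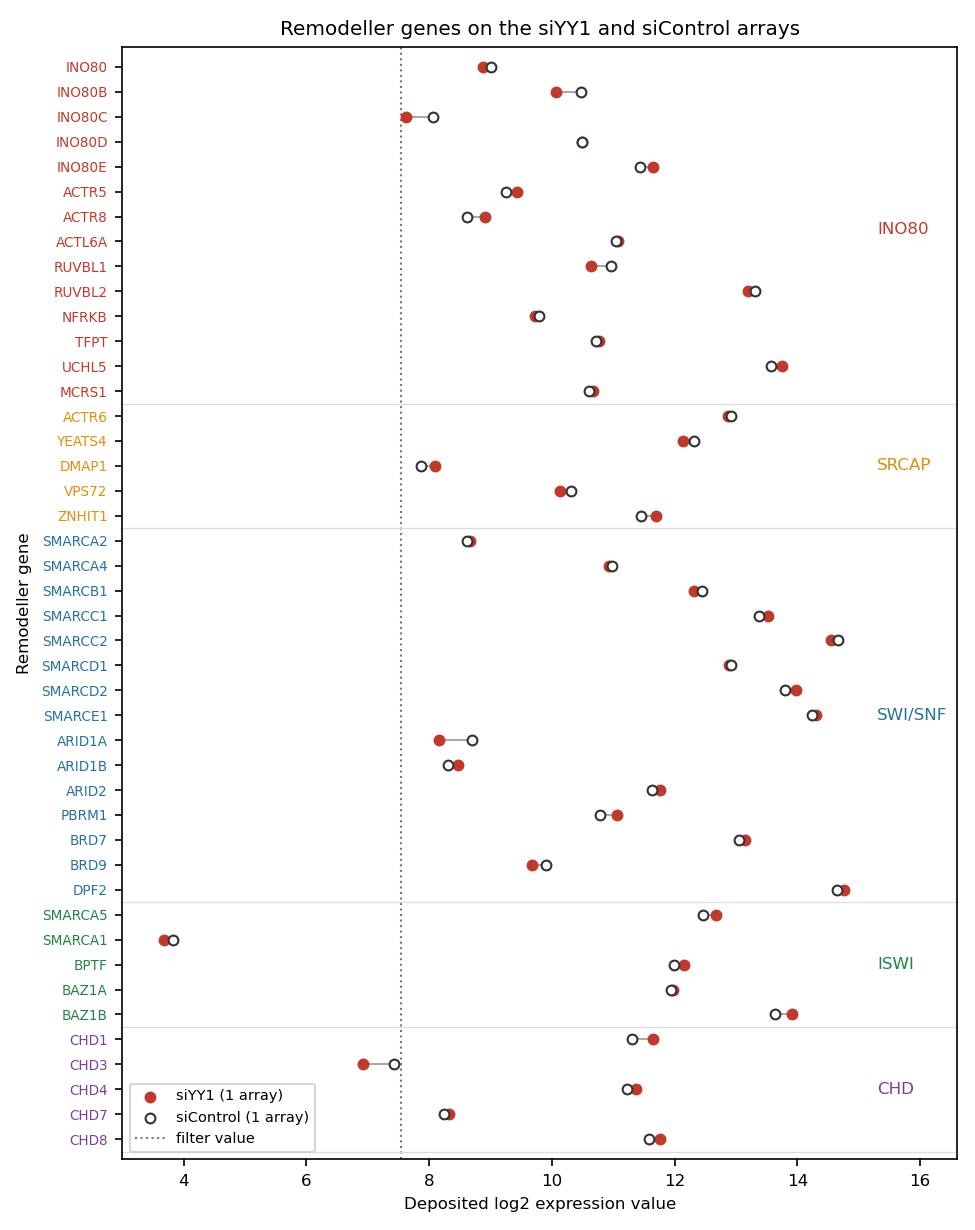
Deposited log2 value (horizontal axis) of 44 remodeller genes in siYY1 (red) and siControl (open circles), grouped by complex, with the filter value of 7.54 as a dotted line. A grey line joins the arrays for each gene, and it is longest for ARID1A, CHD3, INO80C and INO80B, each lower in siYY1. Values of different genes come from different probes and are not comparable with each other.

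Subunits of SRCAP, which exchanges H2A for H2A.Z, were split as well, with 2 of 5 higher and a median of -0.05. ZNHIT1 read 11.70 in siYY1 and 11.45 in siControl (0.25), and DMAP1, shared with TIP60, read 8.10 in siYY1 and 7.86 in siControl (0.24). YEATS4, which reads acetylated histone H3, read 12.13 in siYY1 and 12.32 in siControl (-0.19). VPS72, a chaperone of H2A.Z, read 10.13 in siYY1 and 10.31 in siControl (-0.18). ACTR6, an actin-related protein, read 12.87 in siYY1 and 12.92 in siControl (-0.05).

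Of the 15 SWI/SNF genes among the 46, 9 were higher in siYY1 and 6 lower, beside 50.4% of all kept genes that were higher. Their median was 0.06. Inside the interquartile range of all kept genes lay 12 of them, and outside it ARID1A (-0.53), BRD9 (-0.24) and PBRM1 (0.29). The 9 kept SWI/SNF genes outside the 46 had a median of -0.16, with 2 higher and 7 lower. The ATPase genes SMARCA4 (BRG1) and SMARCA2 (BRM) both had small differences. SMARCA4 read 10.94 in siYY1 and 10.97 in siControl (-0.03), and SMARCA2 read 8.66 in siYY1 and 8.62 in siControl (0.04).

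ARID1A, a DNA-binding subunit that defines canonical BAF and is a frequent target of loss-of-function mutations in cancer, read 8.17 in siYY1 and 8.70 in siControl. The difference of -0.53, or 1.45-fold lower, was the widest negative one among the kept members. Its paralog ARID1B, which takes its place in the complex, read 8.46 in siYY1 and 8.30 in siControl (0.16), a gap of -0.70 between the differences of the pair.

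Of the genes that define the polybromo form (PBAF), the 3 among the 46 were higher in siYY1. PHF10, a PBAF subunit outside the 46, was lower in siYY1, at 12.20 against 12.46 in siControl (-0.26), and is named after its value was seen. PBRM1, its bromodomain scaffold, read 11.07 in siYY1 and 10.78 in siControl (0.29). ARID2 read 11.76 in siYY1 and 11.63 in siControl (0.13), and BRD7 read 13.15 in siYY1 and 13.06 in siControl (0.10). BRD9, a bromodomain protein of the non-canonical form, was lower in siYY1, at 9.67 against 9.91 in siControl (-0.24).

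Core SWI/SNF subunits differed by at most 0.18 in either direction. SMARCD2 (0.18) and SMARCC1 (0.15) were on the high side, and SMARCB1 (-0.14), the subunit lost in rhabdoid tumours, SMARCC2 (-0.11) and SMARCD1 (-0.02) on the low side. SMARCD2 read 13.97 in siYY1 and 13.79 in siControl, and SMARCC1 read 13.53 in siYY1 and 13.38 in siControl. SMARCB1 read 12.31 in siYY1 and 12.44 in siControl, SMARCC2 read 14.55 in siYY1 and 14.66 in siControl, and SMARCD1 read 12.89 in siYY1 and 12.91 in siControl. The paralogs SMARCC1 and SMARCC2, which pair as the scaffold of the complex, thus had small differences of opposite sign. SMARCE1, an HMG-box DNA-binding subunit, read 14.30 in siYY1 and 14.23 in siControl (0.06), and DPF2, which reads acetylated histones, read 14.75 in siYY1 and 14.65 in siControl (0.11). RefSeq lists pseudogenes of SMARCE1, BRD7, BRD9, BPTF, ACTR6, ZNHIT1 and RUVBL2, which probes can share, so their values are less certain.

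The kept ISWI genes among the 46 leaned to the high side. All 4 were higher in siYY1, with a median of 0.18, beside 50.4% of all kept genes that were higher. The 7 kept ISWI genes outside the 46 did not share this, with 3 higher, 4 lower and a median of -0.001. SMARCA5 (SNF2H), the ISWI ATPase of most cell types, read 12.67 in siYY1 and 12.47 in siControl (0.20). Its partners BAZ1B, of the WICH complex, read 13.90 in siYY1 and 13.63 in siControl (0.27), and BAZ1A, of the ACF and CHRAC complexes, read 11.97 in siYY1 and 11.94 in siControl (0.03). BPTF, the histone-reading subunit of NURF, read 12.15 in siYY1 and 11.99 in siControl (0.16). The second ISWI ATPase gene, SMARCA1 (SNF2L), was dim at 3.68 in siYY1 and 3.83 in siControl, and its level was not shown to be above background, so its difference of -0.15 is uncertain.

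Of the CHD genes among the 46, the 4 kept ones were higher in siYY1, with a median of 0.16. Kept CHD genes outside the 46 were lower in siYY1, namely CHD6 (-0.60) and, named after their values were seen, CHD9 (-0.33) and CHD1L (-0.20). CHD1, which binds methylated histone H3 at active genes, read 11.65 in siYY1 and 11.30 in siControl, a difference of 0.34 or 1.27-fold. At least as large a difference occurred in 23.1% of kept genes. CHD8, a repressor of beta-catenin targets, read 11.76 in siYY1 and 11.59 in siControl (0.17), and CHD4, the main NuRD ATPase, read 11.37 in siYY1 and 11.22 in siControl (0.15). CHD7, mutated in CHARGE syndrome, read 8.33 in siYY1 and 8.23 in siControl (0.10). CHD3, the alternative NuRD ATPase, was the only one of the 5 measured CHD genes among the 46 on the low side, at 6.92 in siYY1 and 7.43 in siControl (-0.50), and both values lay under the filter value. In RNA from whole cultures, fewer cells expressing a gene and less RNA per cell cannot be told apart.

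**Figure D3:**
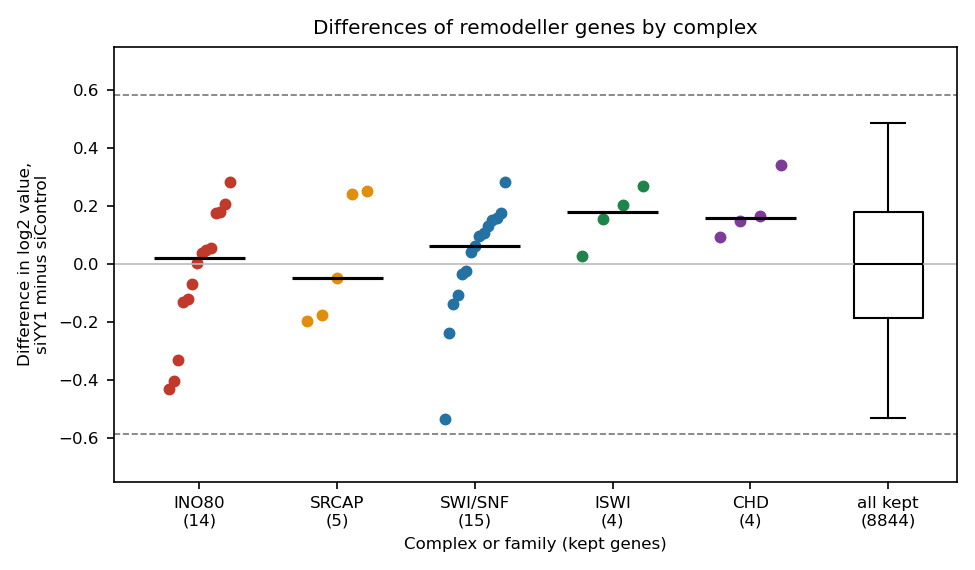
Difference in log2 value (siYY1 minus siControl) of each kept remodeller gene by complex, with the median as a black bar and the number of genes in parentheses. The box shows the median and interquartile range of all 8844 kept genes, with whiskers at the 5th and 95th percentiles, and dashed lines mark 1.5-fold. Medians ran from -0.05 (SRCAP) to 0.18 (ISWI), inside the interquartile range of all kept genes.

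Taking the complexes side by side, the medians were 0.02 for INO80, -0.05 for SRCAP, 0.06 for SWI/SNF, 0.18 for ISWI and 0.16 for CHD, against 0.00 for all kept genes. The ranges of all the complexes overlapped. The place of INO80 between SRCAP and SWI/SNF depended on the summary. With means, INO80 (-0.03) was below both SRCAP (0.02) and SWI/SNF (0.01). With a filter at the upper quartile, its median (0.11) was above that of SWI/SNF (0.10). That filter left only 4 INO80 subunits, INO80E, ACTL6A, RUVBL2 and UCHL5, and all of these but INO80E are shared with other complexes. Of the medians first listed, the 2 highest rest on 4 genes each. With 1 array per group these medians carry no error, and no order among the complexes was tested. By role rather than complex, 8 kept members are ATPase genes of the SNF2 family: INO80, SMARCA2, SMARCA4, SMARCA5, CHD1, CHD4, CHD7 and CHD8. These 8 members had a median of 0.12, with 6 higher. Outside the members, a list of 11 kept genes, which includes DAXX from outside that family, had a median of -0.17, with 8 lower and 3 higher. The kept genes CHD6 (-0.60), CHD9 (-0.33) and CHD1L (-0.20) were also lower. The median of 0.12 therefore describes the 8 members and not the family.

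A further 61 genes gave context, most of them listed from known membership of the same complexes and families. They also include DAXX, which is not an SNF2-family protein, and H2AZ1 and H2AZ2, which encode the histone that SRCAP places. Of the 61 genes, 49 were kept. Of these, 2 exceeded siControl by 1.5-fold or more and 1 fell short of it by as much, beside the 6.82% of all kept genes that were past this size. The 2 higher genes were paralogs and scaffold subunits of the TIP60 acetyltransferase complex. EPC1 read 10.63 in siYY1 and 10.03 in siControl (0.61, 1.52-fold). EPC2 read 10.75 in siYY1 and 10.15 in siControl (0.60, 1.52-fold). The lower gene was CHD6, a CHD remodeller outside NuRD, at 9.70 in siYY1 and 10.30 in siControl (-0.60, 1.52-fold lower). All 3 lay just past the threshold, and CHD6 came under it with quantile normalization or lowess centring.

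The other SRCAP and TIP60 genes had a median of 0.24 over 10 kept genes, with 8 higher in siYY1. These 8 include the H2A.Z genes H2AZ1 (0.25) and H2AZ2 (0.28), named after their values were seen. In contrast, the other CHD and NuRD genes had a median of -0.18 over 12, with 10 lower, and the other SWI/SNF genes a median of -0.16 over 9, with 7 lower. The other ISWI genes had a median of 0.00 over 7, with 3 higher and 4 lower. The list of further SNF2-family genes had a median of -0.17 over 11, with 8 lower. Those 11 include DAXX (0.21), which is outside that family and is named after its value was seen. Over the 49 genes 18 were higher and 31 lower, with a median of -0.09, beside 27 higher and 15 lower among the 42 kept members. Whether these shares differ was not tested.

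**Figure D4:**
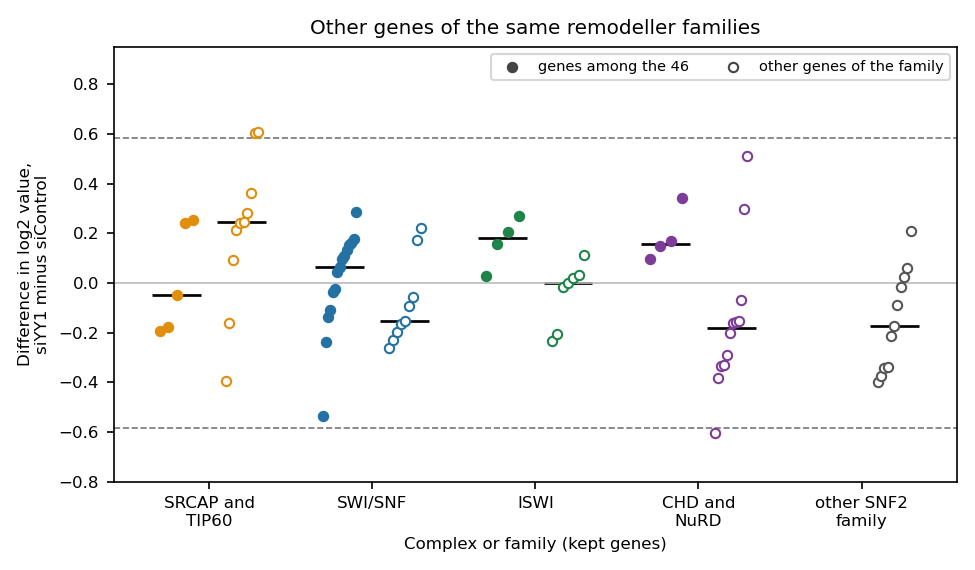
Difference in log2 value (siYY1 minus siControl) of kept genes of each family, with the genes among the 46 as filled points and other genes of the family as open points. Black bars are medians, and dashed lines mark 1.5-fold. Only EPC1, EPC2 (SRCAP and TIP60) and CHD6 (CHD and NuRD) lie past a dashed line.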

How the data were processed

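Total RNA of 2 SW48 cultures was hybridised to whole-transcript GeneChips. The authors deposited 1 value per probe set, taken here to be log2. That unit rests on their range (2.32 to 17.97 in siYY1 and 2.46 to 17.90 in siControl). No label names the software, normalization or log base, so folds hold only if the values are plain log2. Array number limits precision.

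Probe sets were named through GEO's platform annotation, with symbols checked by Entrez identifier against RefSeq (GRCh38.p14). Probe sets of 1 gene were averaged. A single array per group allowed no test, and sizes of 1.5-fold and 1.3-fold describe differences. All 46 members were named, with those other family genes past 1.5-fold. Members and lists were chosen with earlier results of these data known. The fold counts, a set median and the motif search were tested on simulated data, while the filter, probe averaging and scalings were not. Alternatives were other filters and folds, quantile, median and lowess (fraction 0.3) scaling, the brightest probe, means and other motif patterns. Python 3.11.15, numpy 2.4.6, pandas 2.3.3, statsmodels 0.14.6 and matplotlib 3.10.9 were used.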

Additional observations from a re-analysis of the deposited data

How the results depend on the processing

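No paired analysis was possible because each group had 1 array, and no replicate could be left out. The count of members past 1.5-fold was 0 in each direction with no filter, a filter at the upper quartile, quantile normalization, median or lowess centring and the brightest probe, and at 2-fold. At 1.3-fold it was 3 lower. No kept member changed sign under those scalings, and the widest move was 0.05. Among the other family genes, the count higher was 4 with no filter and 0 with the stricter filter, which tests fewer genes. The count lower was 0 with the stricter filter, quantile normalization or lowess centring and 4 at 1.3-fold, and at 2-fold both counts were 0. The 2 genes added with no filter, CECR2 and HLTF (named after their values were seen), were dim on both arrays. The INO80 median ran from 0.02 to 0.11 over the scalings and filters, while the mean was -0.03. The value of 0.11 came from the stricter filter, which left only 4 INO80 subunits. For SRCAP the median was -0.05 and the mean 0.02. AAGATGGCG was held by 3 members and 1.75% of windows, and CCATNTT by 8 members and 15.6% of windows.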
